A study of Homo sapiens with 4 samples.

Results

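A circular RNA whose span on the genome overlaps annotated genes can carry more than 1 gene name in the deposited table. Exon circles of this kind were taken as the rows typed exon, off the mitochondrial genome, with 2 or more comma-separated gene names and at least 1 count over the 4 libraries. They numbered 18650 of 110206 exon circles and of 190152 circles of all types with at least 1 count, and they held 220575 counts. Circles with the same names were also summed into 3252 name sets, written here with the host gene before the other names. Most circles, 14817, carried 2 names, 2872 carried 3, 568 carried 4 and 393 carried 5 or more, up to 15. In 228 rows all the names were one repeated symbol, such as MATR3 listed with MATR3, and these were kept because the rule asks for names, not for different genes.

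The cells were a radioresistant derivative, irradiated with a total of 50 Gy, of the established breast cancer line MDA-MB-468 (human, basal-like). All 4 libraries therefore share the irradiation history, and no library of the parental line was compared. One pair of biological replicates carried the control hairpin shCtrl (genotype labelled WT), called control, and the other pair a stable hairpin against HNRNPL, called knockdown, so n = 2 in each group. The protocol names the hairpin shHNRNPL-1 and both knockdown library names carry sh45, and whether these are the same is not stated. Both knockdown libraries share 1 hairpin label, so hairpin effects and those of lower HNRNPL cannot be told apart. The p-values measure the spread between these samples only. No circle carried the name HNRNPL, so the knockdown itself was not checked in these libraries. Of 10 marker genes, single-name exon circles of EGFR, a receptor abundant in basal-like cells, had 48, 5, 3 and 2 counts in control 1, control 2, knockdown 1 and knockdown 2, the order used for every set of 4 values below. The basal keratins KRT5, KRT14 and KRT17, the cadherin CDH3 and the receptor PGR had no circle, and FOXC1, VIM, ESR1 and ERBB2 had at most 5 counts in a library, so the circles do not identify the line; circle counts do not measure the linear mRNA. The libraries held 472428, 556578, 282737 and 390547 counts, and control 1 stood apart in its share of exon circles, 70.5% against 84.9% to 85.7% in the others.

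Exon circles form by back-splicing, when the spliceosome joins the end of an exon to the start of the same or an earlier exon. HNRNPL is an RNA-binding protein that regulates alternative splicing and has been linked to back-splicing. A genomic span can overlap several genes in distinct ways: a small gene such as a miRNA, snoRNA or U6 snRNA copy may lie in an intron of its host, a pseudogene or long noncoding RNA (lncRNA) may be embedded, or the annotation may hold a read-through gene, a transcript that continues from one gene into the next and is often named by joining both symbols with a hyphen. A gene that lies between the exons of a circle contributes no sequence to it, although its name stands in the row.

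The clearest case of this difference is the miRNA hairpin, since a hairpin between exons is spliced out and one inside an exon is carried in the circle. The circles named 239 miRNA genes, in 1536 circles. The RefSeq hairpin positions for GRCh38.p14 located 181 of them, inside 1117 circles or across an end of them. The hairpin and seed tallies below cover these 181 only. Sequences are shown first for the miRNAs whose most counted circle with the hairpin in an exon held the most counts. Those between exons had the most counts of the miRNAs with no circle that held the whole hairpin in an exon. Summed over circles with the whole hairpin in an exon, MIR3064 in DDX5, with 37 counts, exceeded MIR559, with 26, and is not shown. Capitals mark the seed, bases 2 to 8 from the 5′ end, through which a mature miRNA recognises its targets. In an exon of at least 1 listed isoform:
hsa-miR-548ar-5p: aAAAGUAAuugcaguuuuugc
hsa-miR-548ar-3p: uAAAACUGcaguuauuuuugc
hsa-miR-559: uAAAGUAAauaugcaccaaaa
hsa-miR-7856-5p: uUUUAAGGacacugagggauc
hsa-miR-491-5p: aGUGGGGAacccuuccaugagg
hsa-miR-491-3p: cUUAUGCAagauucccuucuac
Between the exons:
hsa-miR-558: uGAGCUGCuguaccaaaau
hsa-miR-744-5p: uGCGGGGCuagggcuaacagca
hsa-miR-744-3p: cUGUUGCCacuaaccucaaccu
hsa-miR-626: aGCUGUCUgaaaaugucuu
hsa-miR-4804-5p: uUGGACGGuaagguuaagcaa
hsa-miR-4804-3p: uGCUUAACcuugcccucgaaa
Of these, hsa-miR-548ar-5p and hsa-miR-559 share the seed AAAGUAA, while their other bases differ. The other seeds printed here each occurred in 1 mature miRNA of those named by the circles.

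The hairpin lay between exons in 989 circles with 8902 counts, partly in an exon in 64 circles with 604 counts, and whole in an exon of at least 1 listed isoform in 64 circles with 1743 counts from 24 miRNA genes. MIR548AR, inside CDC16 on chromosome 13 at positions 114244505 to 114244561, made up most of the last group. CDC16 encodes a subunit of the anaphase-promoting complex. Its circles that name MIR548AR had 598, 855, 205 and 324 counts over 69 circles, and the 15 circles with the hairpin in an exon had 397, 516, 128 and 218. Per 100000 counts of the library the 69 circles stood at 127, 154, 72.5 and 83.0, higher in both controls than in either knockdown library. The table gives no counts per isoform, and only 1 of these circles, with 1 count, held the hairpin in every listed isoform, so the level of circles that contain it cannot be read from the counts.

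The hairpins of MIR7856 in ODF2L, a gene for a centrosome-related protein, and MIR491 in FOCAD lay in an exon of at least 1 isoform in circles with 162 and 143 counts. The most counted circle with the MIR559 hairpin in an exon, in EPCAM, an epithelial adhesion molecule, had 11, 5, 4 and 6 counts. Hairpins between exons included MIR558 in BIRC6, a large ubiquitin-conjugating enzyme, with 346, 328, 203 and 204 counts over 51 circles. MIR744 in MAP2K4, a kinase of the JNK pathway, had 139, 403, 119 and 204 counts over 14 circles. Per 100000 counts MIR744 stood at 29.4, 72.4, 42.1 and 52.2, so both knockdown libraries lay between the controls. MIR3917 lies in STMN1, a regulator of microtubules. None of its circles held the whole hairpin in an exon, and how many held it between exons is not given. They had 313 counts in control 1 against 1, 17 and 2 in the other libraries, so that value rested on 1 library.

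The same held for the other small genes. The RefSeq gene table placed 6157 of 8059 mentions of 6 kinds of small RNA gene over the circle, and 94.4% of those placed lay between exons. The share between exons was 88.8% of 1573 placed mentions for miRNAs, 94.1% of 1645 for snoRNAs, which guide rRNA modification, and 98.1% of 1610 for snRNAs, mostly copies of spliceosomal RNA genes. A snoRNA lay whole in an exon of at least 1 isoform in 91 mentions and a snRNA in 25. Pseudogenes lay between exons in 67.4% of 3406 placed mentions. A protein-coding gene spanned the whole circle in 89.8% of 19255 placed mentions. Of all 42902 mentions, 18638 had a strand in the tables, and all of these ran on the circle's own strand (0 on the other), while 24264 had none there. Whether genes on the other strand are named at all was not tested. These values therefore do not show that overlaps are confined to the circle's strand.

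**Figure D1:**
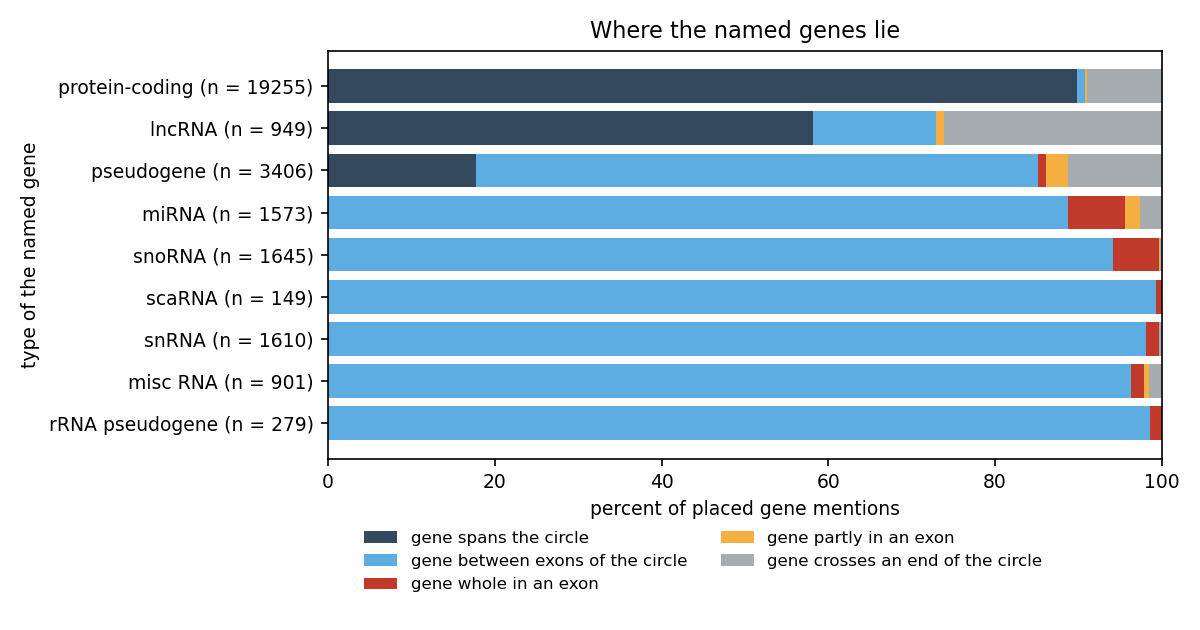
Percent of placed gene mentions (x axis) by where the named gene lies relative to the circle, for 9 types of gene (y axis, with the number of mentions placed). Small RNA genes lay almost wholly between exons, 88.8% for miRNAs and 98.1% for snRNAs, whereas protein-coding genes spanned the circle in 89.8% of mentions.

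The circles that name several genes differed in size from exon circles that name 1 gene. With each circle weighing the same, their median length was 1382, 1357, 1411 and 1367 nt against 1214, 1172, 1212 and 1182 nt. They held a median of 8 exons against 6 in every library. Their median span on the genome was 28536 ± 1008 nt (SD, n = 4 libraries) against 16581 ± 1003 nt, which is not independent of the rule, since a wider span overlaps more genes. Length and exon number were higher in each of the 4 libraries, and for both an exact two-sided paired permutation test gave p = 0.13, the smallest it can give with 4 pairs. Both can rise with the span, so they are not free of the rule either, and the difference is given as a description. The share of circles whose ends carry the AG-GT splice motif was 93.5% ± 2.68 (SD, n = 4) against 93.2% ± 2.55. Within libraries the differences were 0.0413, 0.231, 0.167 and 0.855 points. Among circles with at least 10 counts they were -0.441, -0.329, -0.497 and -0.526 points. The exact paired permutation test gave p = 0.13 for both, so the sign depended on the minimum count.

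Exon circles that name several genes took 17.2% and 16.6% of the exon circle counts in the controls and 14.6% and 14.8% in the knockdown libraries. The groups did not overlap, with means of 16.9% ± 0.388 and 14.7% ± 0.142 (SD, n = 2), and the exact two-sided permutation test gave p = 0.33, the smallest possible with 2 against 2. With all counts of the library as denominator the shares were 12.1%, 14.1%, 12.5% and 12.7%, which overlapped; the low value is that of control 1, whose exon share was also low. Without the circles that name SENP6 the shares were 17.1%, 16.4%, 13.5% and 13.6%.

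The share was then split by the kinds of gene named. Circles that name only protein-coding genes had 4.77% and 4.63% of exon circle counts in the controls and 3.64% and 3.87% with the knockdown, without overlap. Those of a coding gene with a lncRNA had 3.91% and 3.56% in the controls and 3.17% and 3.09% with the knockdown. Those of a coding gene with a small RNA gene, 5445 circles and 59320 counts, had 4.38% and 4.19% against 4.29% and 4.34%, which overlapped. Over all circles that name several genes, whatever the class, the kinds of small RNA gene ran both ways. Circles that name a snRNA gene had 0.998% and 1.13% in the controls and 2.08% and 2.12% with the knockdown. Circles that name a snoRNA gene had 1.04% and 0.818% against 0.624% and 0.603%, and circles that name a miRNA gene had 1.34% and 1.12% against 0.798% and 0.788%. The SENP6 set described below alone held 187, 995, 3171 and 4648 of the snRNA counts, and without the circles that name SENP6 the direction turned: the snRNA share was 0.942% and 0.920% in the controls and 0.780% and 0.735% with the knockdown. The class of a coding gene with a small RNA gene then stood at 4.33% and 3.99% against 3.02% and 2.99%, without overlap, whereas with all counts of the library as denominator and SENP6 kept it was higher in both knockdown libraries, at 3.09%, 3.56%, 3.68% and 3.72%. No test was run on these shares by gene type, and an exact permutation test of 2 against 2 libraries cannot go below p = 0.33. The values are given as a description.

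**Figure D2:**
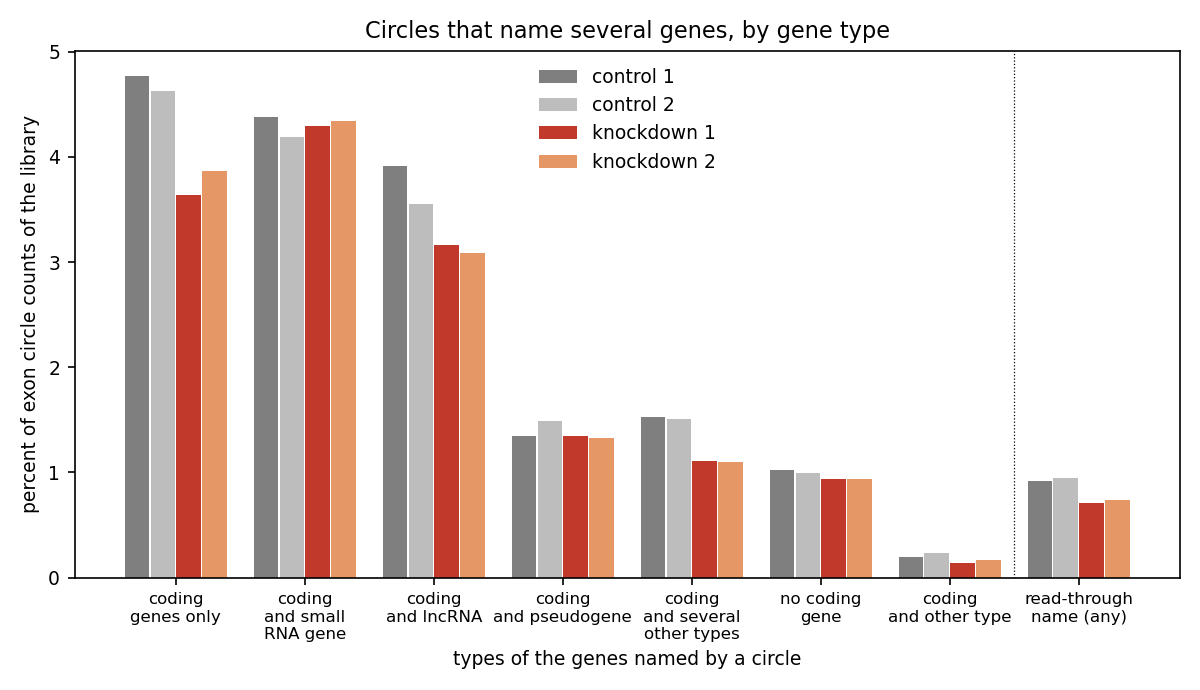
Percent of each library's exon circle counts (y axis) in circles that name several genes, by the types of the genes named (x axis); right of the dotted line, circles with a read-through name, which also count in the classes on the left. The 4 bars are the 4 libraries. Coding-only circles stood at 4.77% and 4.63% in the controls and 3.64% and 3.87% with the knockdown, while circles with a small RNA gene overlapped between the groups.

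Circles with a hyphenated read-through name formed a small part. Unnamed coding genes that join neighbouring genes, described below, are not counted in this class. A hyphenated name that joins 2 known genes stood in 976 circles with 11686 counts, through 75 different read-through names. These circles took 0.914% and 0.948% of exon circle counts in the controls and 0.706% and 0.734% with the knockdown, without overlap. In 891 of the circles 1 of the partners was also named, in 81 both were, and in 4 neither was. Counts lay mostly in the upstream gene: 613 circles with 8449 counts named only the first partner, and 278 circles with 2572 counts only the second. In the RefSeq promoter table (GRCh38.p14), 55 read-through names had an entry together with their first gene, and the windows of 300 bases around the starts overlapped in 48 and were identical in 34. None of the 48 read-through names listed with their second gene had a window overlapping that of the second gene.

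The 10 read-through names with the most counts held 76.6% of the read-through counts. Circles of ANKHD1-EIF4EBP3, SPECC1L-ADORA2A, TBCEL-TECTA and ZNF286A-TBC1D26 named the first partner in nearly every case. ANKHD1, a protein with ankyrin repeats, had 329, 479, 154 and 239 counts in 112 circles and EIF4EBP3, a translation repressor, none. SPECC1L, a cytoskeletal protein, had 279, 268, 194 and 220 counts in 35 circles and the adenosine receptor gene ADORA2A none. P3R3URF-PIK3R3 was the reverse: all 38 circles, with 132, 412, 118 and 217 counts, named PIK3R3, a regulatory subunit of phosphoinositide 3-kinase, and none named P3R3URF. BIVM-ERCC5 and TRIM59-IFT80 had circles in both partners and none that named both. BIVM circles had 62, 197, 99 and 159 counts and those of ERCC5, a nuclease of nucleotide excision repair, 65, 99, 29 and 23.

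A row that names both partners does not show that the circle covers both genes. BUB1B-PAK6 had the most such circles, 23, with 96, 105, 46 and 60 counts. BUB1B encodes a kinase of the mitotic spindle checkpoint and PAK6 a p21-activated kinase. Its most counted circle, 2145 nt in 16 exons on chromosome 15 from 40185551 to 40220717, had 19, 36, 12 and 13 counts and ends inside BUB1B, which the RefSeq table places at 40161069 to 40221123. That table starts PAK6 at 40239063, beyond the circle, and starts BUB1B-PAK6 at 40217428. The deposited annotation thus reached further than RefSeq's here. A further 44 circles with 499 counts carried the name BUB1B alone.

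Circles whose ends lie in different genes, with no gene placed by RefSeq covering both ends, numbered 622. They had 3391 counts, 1.54% of the counts of circles that name several genes. Names without a RefSeq span were not considered, so for some of these circles an unplaced gene may cover both ends. In 317 of them, with 1893 counts, every name was placed and the gene spans lay apart. The most counted joined ZNF669 to ZNF124 on chromosome 1, both zinc finger genes, from 247101987 to 247159066, with 89, 104, 19 and 41 counts. ZNF510 and ZNF782 on chromosome 9, also zinc finger genes, were joined by a circle of 3 exons from 96763506 to 96827181 with 17, 21, 39 and 55 counts. CYP4X1 and CYP4Z1, neighbouring cytochrome P450 genes, had 22, 24, 12 and 27 counts in 1 circle. AGO1 and AGO3, Argonaute genes of the small RNA pathway, had 19, 24, 8 and 15, and a circle from AGO4 to AGO3 that also named AGO1 had 9, 27, 10 and 13. The ZNF669 circle was higher in both controls and the ZNF510 circle in both knockdown libraries, per 100000 counts, while those of CYP4X1 and AGO4 overlapped. Several of these pairs are paralogs with similar sequence, and reads could be split between near-identical copies, so the joins are uncertain.

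The effect of the knockdown was tested with edgeR's quasi-likelihood test over the whole table, with Benjamini-Hochberg adjustment and a threshold of 0.05. Over circles, 3057 of the circles that name several genes had the minimum of 10 counts. None passed, and none of all 21576 circles tested did (0.0%). At an unadjusted p under 0.05, 193 were higher and 162 lower with the knockdown, where 9.29% of all circles tested were higher and 4.26% lower. Their median log2 fold change was -0.40 and that of all circles tested -0.41. The smallest adjusted p by edgeR was 0.0880. Of the 747 with at least 40 counts, 172 had both knockdown libraries above both controls per 100000 counts and 250 had both below, 23.0% and 33.5%, beside 29.7% and 28.9% of all circles of that size. Other tools and sets of libraries gave calls: DESeq2 called 109 of these circles and limma voom with group weights 32, beside 4.88% and 1.37% of all circles tested, and edgeR called 569 of 2993 without control 1 and 635 of 3010 without control 2, beside 22.6% and 29.9% of all circles. Without 1 control that group is a single library, and the spread comes from the knockdown pair alone.

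Among the circles with the smallest p, 1 of KRIT1, a gene mutated in cerebral cavernous malformation, on chromosome 7 from 92213195 to 92226682, had 1, 1, 57 and 117 counts. Pooled per group this is a ratio of 133, with a 95% interval of 36.3 to 1107 for counting error only. A one-exon circle of RAB3IP, an exchange factor for RAB8, on chromosome 12 from 69800209 to 69801721, had 34, 62, 240 and 354 counts. A SENP6 circle on chromosome 6 from 75634707 to 75663518 had 5, 16, 125 and 224. These 3 were higher in both knockdown libraries. The lowest p among lower circles belonged to PHKB, a subunit of phosphorylase kinase, on chromosome 16 from 47463882 to 47610920, with 176, 212, 27 and 31 counts. A one-exon circle of MATR3, a nuclear matrix protein that binds RNA, from 139307239 to 139308327 on chromosome 5 had 80, 97, 14 and 10. None of these 5 passed the threshold in edgeR's quasi-likelihood test.

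Summed over name sets, 25 of 1552 sets with several names and at least 10 counts passed, all higher with the knockdown, or 1.61%. Of all 6070 name sets tested 2.62% passed, 2.55% higher and 0.0659% lower, so the share among sets with several names was not above that background. At an unadjusted p under 0.05, 141 were higher and 66 lower, against 11.6% and 5.77% of all name sets. Of the 750 with at least 40 counts, 161 had both knockdown libraries above both controls per 100000 counts and 277 had both below, 21.5% and 36.9%, beside 23.6% and 36.6% of all name sets of that size. The median log2 fold change was -0.14, and -0.12 over all name sets. With library-size scaling in place of edgeR's TMM scaling the median of all sets was -0.42, so fold changes below are relative to a scaling that moved the centre by more than 0.1. Of the 25, 9 still passed with library-size scaling, where 1.07% of all name sets did, namely those of RAB3IP, SNX14, TMCC1, DIAPH2, DPY19L1, ZNF286A, KRIT1, LRRC40 and NSUN7, and none did when either knockdown library was left out. When a control was left out all 25 passed, but the spread then came from the knockdown pair alone and edgeR called 23.7% of all name sets without control 1 and 33.1% without control 2 (309 and 430 of those with several names, 20.1% and 27.8%).

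SENP6, a protease that removes SUMO2 and SUMO3 chains from proteins, held most of the counts among the sets that passed. Circles that name it with RNU6-1016P, a U6 snRNA copy between its exons, had 187, 995, 3171 and 4648 counts over 47 circles, which fitted at 3.72 ± 0.70 (SE) on the log2 scale with an edgeR adjusted p of 0.0304. With library-size scaling the edgeR adjusted p was 0.0664 and the set did not pass; the log2 fold change was 2.92 without control 1 and 5.19 without control 2. Both knockdown libraries stood far above the controls, and control 1 far below control 2. SENP6 circles that name the host alone had 144, 854, 3193 and 4970 counts and a log2 fold change of 4.03, with an edgeR adjusted p of 0.0287. The snRNA gene lay between exons in all 47 circles.

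The smallest p belonged to RAB3IP with ENSG00000258052, 34, 62, 243 and 357 counts in 3 circles, higher by 3.58 ± 0.38 (SE) on the log2 scale with an edgeR adjusted p of 0.00924. One circle held 99.1% of these counts. SNX14, a sorting nexin of lipid metabolism, with ENSG00000271793 rose from 96 and 145 to 391 and 578 counts over 130 circles, at 2.93 ± 0.36 and an edgeR adjusted p of 0.0101. The most counted of the 130 held 11.7% of the counts, so the rise did not rest on 1 circle as in RAB3IP. TMCC1, a protein of the endoplasmic reticulum, with ENSG00000203644 had 11, 20, 62 and 73 counts. DIAPH2, a formin that nucleates actin, with a signal recognition particle RNA name had 1, 1, 23 and 27 counts, a pooled ratio of 38.2 with a 95% counting interval of 10.0 to 324, and did not pass in limma voom (adjusted p 0.0873). DPY19L1 with DPY19L2P1 had 3, 5, 29 and 36 counts, and its circles run from the gene into the pseudogene of a related sequence, so the assignment of reads is uncertain.

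The other sets that passed included KRIT1 with a pair of unnamed genes (23, 68, 160 and 293 counts), ATR, a kinase of the DNA damage response, with a lncRNA (34, 30, 70 and 89), SKP1, a core subunit of SCF ubiquitin ligases, with ENSG00000272772 (61, 99, 141 and 152), and ANKRD12 with ENSG00000265257 (92, 373, 616 and 948). Those of ATR, SKP1 and ANKRD12 did not pass with library-size scaling (edgeR adjusted p 0.0505, 0.0827 and 0.0926), and ANKRD12 also not with edgeR's newer dispersion method (0.0581) or among sets with at least 40 counts (0.0556). Leaving out 1 library moved the fold change of 9 of the 25 by more than 1.5 times, and the log2 values without control 1 and without control 2 were 2.01 and 3.89 for ANKRD12, 2.66 and 4.08 for KRIT1, 1.68 and 2.86 for BBS9, 2.28 and 4.63 for BRWD1, 2.67 and 4.21 for ZNF286A and 4.28 and 7.78 for ZNF559. By gene type, 11 of the 340 sets of coding genes only passed, 5 of 441 with a small RNA gene, 4 of 279 with a lncRNA, 2 of 183 with a pseudogene, 2 of 137 with several other types, 1 of 148 with no coding gene and 0 of 24 with another type, beside 2.62% of all name sets. Among hyphenated read-through names 2 of 76 sets passed, or 2.63%. They were ZNF286A with ZNF286A-TBC1D26, at 13, 42, 102 and 178 counts, and ZNF559 with ZNF559-ZNF177, at 0, 2, 16 and 28. Both are zinc finger genes.

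No set was called lower by edgeR with the settings above, while 1 was in DESeq2, 8 in limma voom and 39 with no filter, where 0.198%, 0.988% and 1.74% of all name sets were. With 5 counts in 2 libraries, and with at least 40 counts, 2 were called lower in edgeR, beside 0.182% and 0.229% of all. The 3 with the smallest p were UBAC2, a ubiquitin-associated protein, with RN7SKP9 at 64, 86, 5 and 13 counts (log2 fold change -2.15, edgeR adjusted p 0.0590), RREB1, a zinc finger transcription factor, with ENSG00000225092 at 127, 174, 28 and 32 (-1.38, edgeR adjusted p 0.0756), and CALU, a calcium-binding protein of the secretory pathway, with RN7SL81P at 39, 10, 0 and 0. Against 3 counts per knockdown library CALU stood at least 5.50-fold lower, a bound that was 9.03 from control 1 alone and 1.96 from control 2 alone. All 3 were lower in both knockdown libraries. They did not pass in edgeR, all 3 passed in limma voom (adjusted p 0.0048, 0.0221 and 0.0155), and UBAC2 and RREB1 also in edgeR with at least 40 counts (adjusted p 0.0418 and 0.0480).

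**Figure D3:**
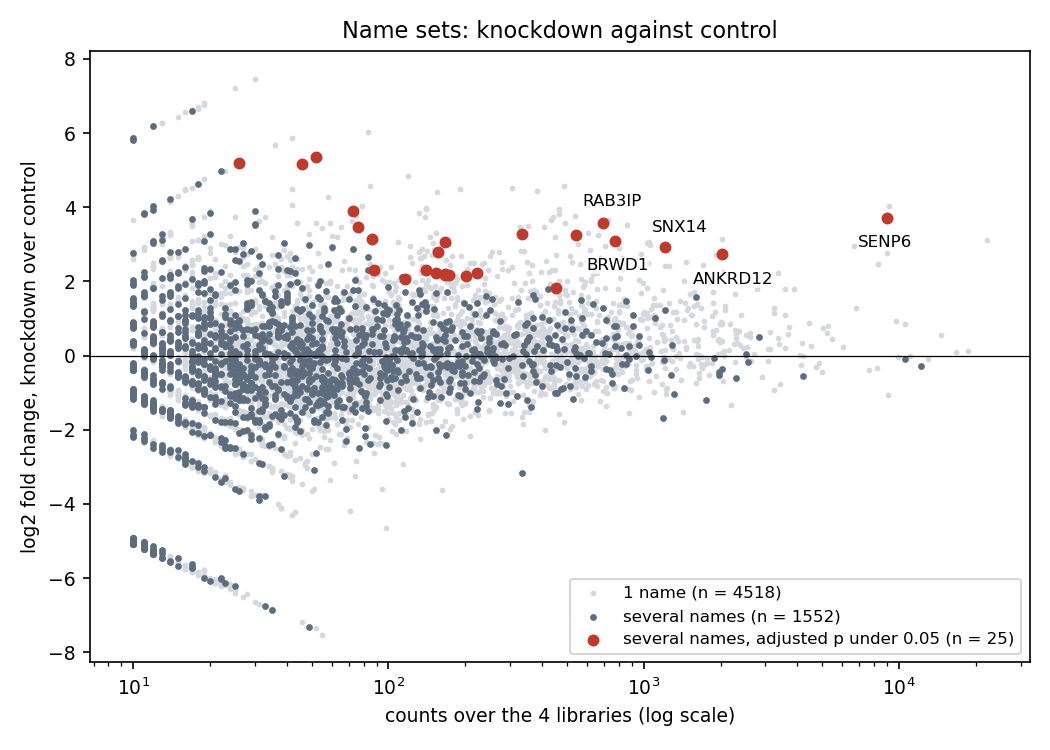
Log2 fold change of knockdown over control (y axis) against counts over the 4 libraries (x axis, log scale) for 6070 name sets in edgeR's fit: light points name 1 gene, dark points several, red points are the 25 several-name sets past the threshold. All 25 lie above 0, and SENP6 is the most abundant of them.

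For 10 of the 25 sets the host gene also had at least 10 counts in circles that name it alone, so circles with and without the second name can be compared. RefSeq gave no span over the circles for the second name in the sets of BRWD1, TMCC1, BBS9, ATR and CUL5. The shares therefore do not show where in the gene a rise lay. The sets were picked for their rise, so these shares are a description. In BRWD1, a bromodomain protein, circles that also name the intronic lncRNA BRWD1-IT1 rose from 22 and 124 to 253 and 374 counts, while circles that name BRWD1 alone had 317, 610, 266 and 382. The share with BRWD1-IT1 was thus 6.49% and 16.9% in the controls and 48.7% and 49.5% with the knockdown. In TMCC1 the share went from 36.7% and 47.6% to 81.6% and 92.4%, and in BBS9, a subunit of the ciliary BBSome, from 53.8% and 62.5% to 86.8% and 91.0%. In ATR it was 9.07%, 4.17%, 15.0% and 16.8%. SENP6 and CUL5, a cullin scaffold of ubiquitin ligases, ran the other way: the share that names the small RNA was 56.5%, 53.8%, 49.8% and 48.3% in SENP6 and 55.6%, 32.3%, 18.5% and 15.0% in CUL5, as circles of CUL5 alone went from 12 and 44 to 154 and 256 counts.

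**Figure D4:**
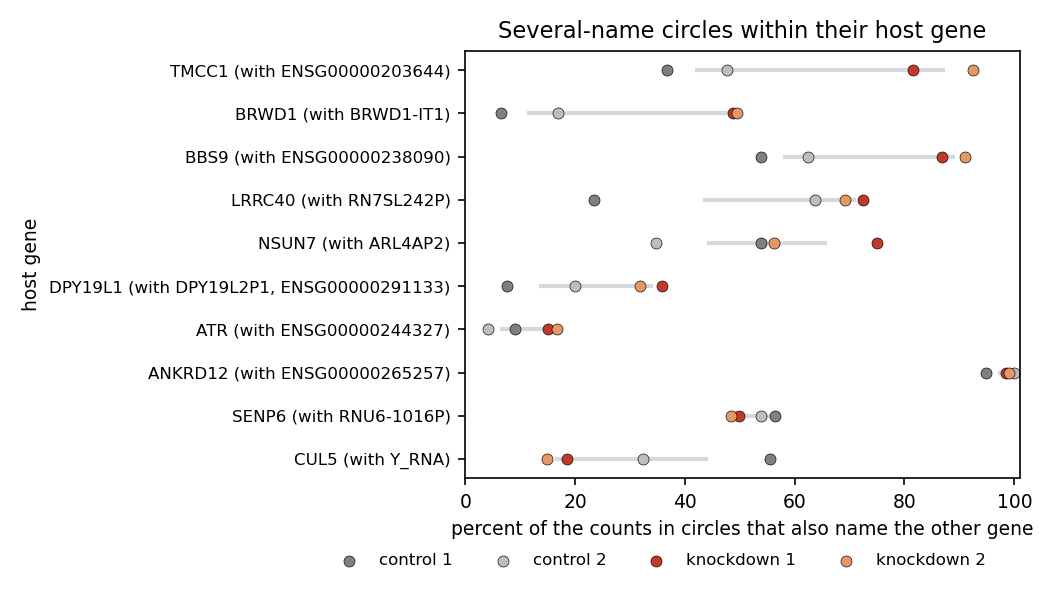
Percent of a host gene's counts (x axis) in circles that also name the other gene, out of those plus the circles that name the host alone, for 10 host genes (y axis). Points are the 4 libraries and the grey line joins the group means. In BRWD1 and TMCC1 both knockdown libraries stand above both controls, in CUL5 and SENP6 below them.

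Some unnamed coding genes, listed by identifier only, join neighbouring genes as a read-through symbol does, so that circles of each neighbour carry the same joining name. This grouping was made after the values were seen. There were 20 pairs of such arms with at least 40 counts each, 16 through an unnamed gene and 4 through a read-through symbol. The share of the first arm in both arms' counts did not overlap between control and knockdown in 13 of the 20 pairs. PPP2CA enters against SKP1 and, with nearly the same counts, against CDKL3, so the 20 are not all independent. In neither of these PPP2CA pairs did the groups overlap. Among 2692 pairs of neighbouring single-name genes on 1 strand the share did not overlap in 56.6%, so 65% is close to that background. The shift of the mean exceeded 30 points in 4 of the 20, and in 11.5% of the neighbouring pairs.

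SNX14 and SYNCRIP, an RNA-binding protein, share ENSG00000271793, and their counts ran opposite ways. SNX14 circles had 96, 145, 391 and 578 counts and SYNCRIP circles 548, 499, 124 and 147. The SNX14 share went from 18.7% ± 5.38 to 77.8% ± 2.69 (SD, n = 2). CYP51A1, an enzyme of cholesterol synthesis, and KRIT1 share ENSG00000289027: CYP51A1 circles had 292, 355, 60 and 129 counts and those of KRIT1 29, 85, 182 and 331, so the CYP51A1 share went from 85.8% ± 7.27 to 26.4% ± 2.30. PPP2CA, the catalytic subunit of protein phosphatase 2A, and SKP1 share ENSG00000272772: PPP2CA circles had 130, 250, 43 and 67 counts, and their share went from 69.8% ± 2.52 to 27.0% ± 5.11. MFSD14A, a transporter-like membrane protein, and SLC35A3, a Golgi nucleotide sugar transporter, share ENSG00000283761, and the MFSD14A share went from 47.4% ± 6.80 to 10.3% ± 3.18 with 24, 20, 4 and 9 counts against 22, 27, 46 and 63. In each of these 4 pairs the groups did not overlap, and the exact two-sided permutation p was 0.33, the smallest possible. By contrast the IPO11 share against KIF2A was 25.6% ± 6.18 and 25.3% ± 2.89, which overlapped.

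**Figure D5:**
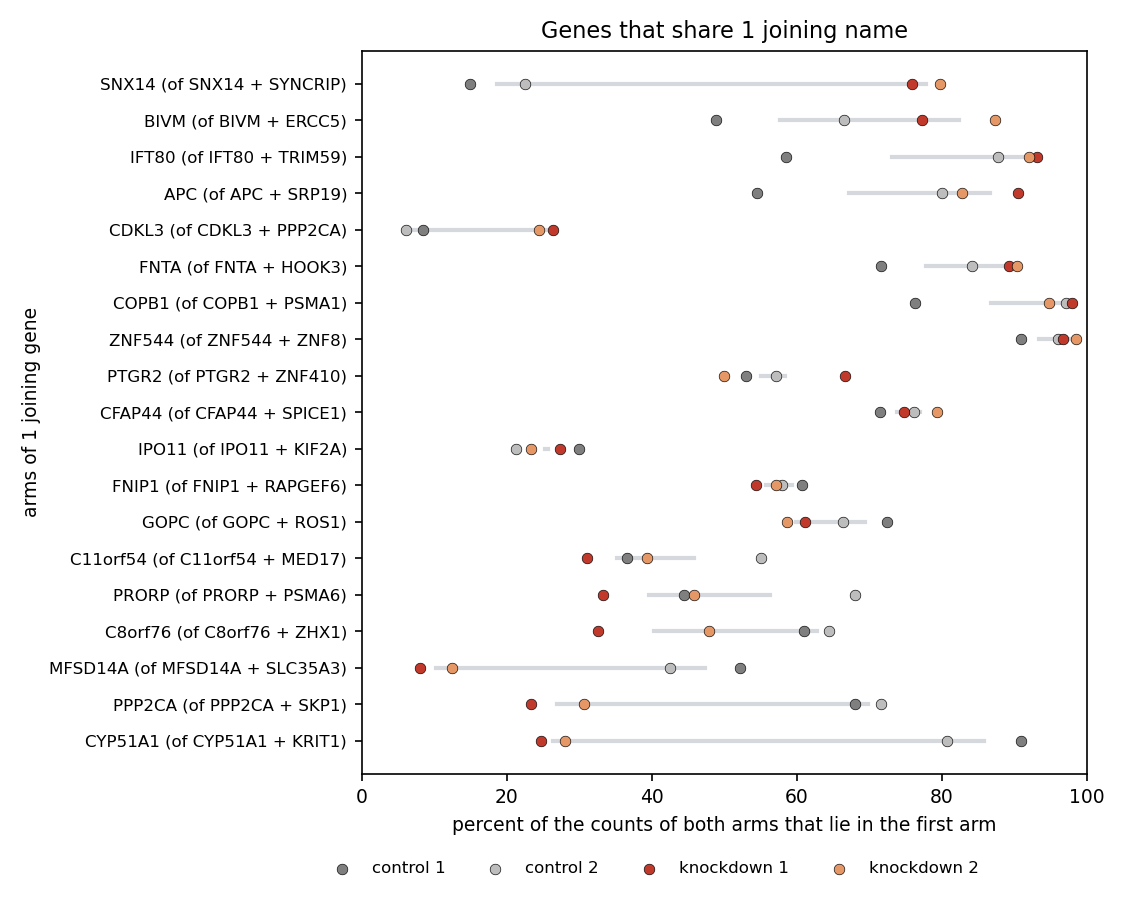
Percent of the counts of both arms that lie in the first arm (x axis) for 19 of the 20 pairs of genes that share 1 joining name (y axis). Points are the 4 libraries and the grey line joins the group means. The SNX14 mean went from 18.7% to 77.8%, the CYP51A1 mean from 85.8% to 26.4%, and IPO11 overlapped between the groups.

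The most abundant set was DAB1 with OMA1, at 2606, 5947, 1420 and 2227 counts in 27 circles on chromosome 1. DAB1 is an adaptor of reelin signalling and OMA1 a protease of the inner mitochondrial membrane. The RefSeq table ends both genes on the minus strand at 58546726 and so gives them 1 start. DAB1 spanned the circle in all 27 and OMA1 in 24, with 12168 counts, so the order of the names marks no host here. The 250 bases upstream of that shared start, chr1:58546727-58546976 on the minus strand of GRCh38.p14, are shown because both genes of the most abundant set start from them:
DAB1 and OMA1: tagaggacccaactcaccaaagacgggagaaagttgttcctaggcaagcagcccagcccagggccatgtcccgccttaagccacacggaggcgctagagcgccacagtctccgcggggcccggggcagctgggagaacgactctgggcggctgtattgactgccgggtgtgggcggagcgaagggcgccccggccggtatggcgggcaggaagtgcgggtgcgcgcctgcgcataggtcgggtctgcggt
Circles of this set stood at 552, 1068, 502 and 570 per 100000 counts, where control 1 lay between the knockdown libraries, and the log2 fold change was -0.28 ± 0.45 (SE; edgeR adjusted p 0.793). Its most counted circle, 1381 nt in 7 exons from 58506060 to 58539310, had 1541, 3353, 750 and 1170 counts.

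Of the 10 most abundant sets only those of SENP6 and ANKRD12, given above with the settings that end their calls, passed the test. TULP4, a tubby-like protein, with ENSG00000274023 had 3363, 3660, 1453 and 2079 counts. Of these, 59.3% came from a one-exon circle of 2218 nt from 158312051 to 158314268 on chromosome 6. PHKB with RNA5SP425 and a lncRNA had 1332, 1754, 447 and 678 counts, or 282, 315, 158 and 174 per 100000. Both controls stood above both knockdown libraries, no circle held more than 21.4% of the counts, and the log2 fold change was -0.54 with an edgeR adjusted p of 0.466. TMEM165, a Golgi ion transporter, with a Y RNA name had 711, 992, 252 and 338 counts, at -0.60 with an edgeR adjusted p of 0.392. SPECC1, NFATC3, a calcium-regulated transcription factor, and HERC4, a ubiquitin ligase, held 2836, 2512 and 2029 counts and did not pass either.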

How the data were processed

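Circular RNA was sequenced on nanopore after Induro reverse transcription, phi29 amplification and T7 endonuclease I digestion, per the labels' protocols. The authors deposited whole-number counts of reads per circle and library, without molecular identifiers, so intervals and floors (3 counts per library) cover counting error only. Circles were called by CIRI-long per the file's rows. The build GRCh38.p14 is from the submitters' processing notes, which also name DESeq2. The deposited CPM table was not used.

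The members and lists were chosen with earlier results of these data known. Name sets sum exon circles with the same names. Fits used edgeR 4.0.16 (glmQLFit, TMM, full library totals, at least 10 counts over 4 libraries) in R 4.3.3, over all circles or name sets, with DESeq2 1.42.0 and limma 3.58.1 as alternatives, and were tested on simulated data. Shares were compared by exact two-sided permutation tests over libraries, except those by gene type, which were not tested. Genes were placed through RefSeq tables: 3953 of 5383 names were there, and 1370 names were Ensembl identifiers.

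Named sets were the 10 most abundant, the 10 read-through names with most counts and the extremes by p (5 higher, 3 lower); named circles were the 5 with most counts per class, the 3 smallest p in each direction and 5 whose ends lie in different genes. Other names in the text, among them further sets that passed and pairs of arms, were chosen after their values were seen. Levels per 100000 are of all counts of a library. Same-numbered libraries did not deviate together (correlation 0.0706 over 4944 circles), so numbers do not pair samples. One locus is counted in the totals and not reported here.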

Additional observations from a re-analysis of the deposited data

How the results depend on the processing

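Scaling, filter and tool moved the counts of calls, and 2 libraries per group limit every test. Of the member circles 0 passed in edgeR, 109 in DESeq2, 32 in limma voom, 48 with no filter, 149 with 5 counts in 2 libraries, 61 with at least 40 counts, and 0 to 635 when 1 library was left out. Of the name sets 25 passed, 9 with library-size scaling, 55 in limma voom, 94 with no filter, 12 where 2 names had to be symbols, and 0 to 430 when 1 library was left out: 309 without control 1, 430 without control 2 and 0 without either knockdown library. A group of 1 library is assumed to vary like the other pair. With all 4 libraries, 8.37% of member circles passed with 5 counts in 2 libraries, beside 12.1% of all circles. With at least 40 counts it was 8.17% beside 11.4%, and with no filter 0.257% beside 0.248%. For name sets the share was 3.54% beside 6.99% of all in limma voom and 2.89% beside 5.08% with no filter. Of these shares only that of circles with no filter was above that of all, and by little. All 25 stayed higher in every setting that tested them. The cause of these moves was not tested. With the replicate number as a block, 156 circles (5.10%, beside 7.51% of all) and 96 name sets (6.19%, beside 9.65%) passed, 14 of the sets lower, although the numbers do not pair the samples.

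The shares of all these circles, of read-through names and of circles without a read-through name kept the direction of their means under every alternative run. With all counts of the library as denominator the last overlapped between the groups, at 11.5%, 13.3%, 11.9% and 12.1%. The share of all these circles overlapped there too. The share of coding with small RNA genes, 0.030 points higher with the knockdown, was -1.15 without SENP6 circles and ran from -0.064 (without control 2) to 0.123 when 1 library was left out, and the snRNA share, 1.03 points higher, was -0.173 without SENP6. The shares within host genes and of arms were not recomputed. Against single-name circles, the difference in circles with several isoforms was 0.620 points and turned to -1.16 weighted by counts, that in AG-GT ends turned to -0.448 with at least 10 counts, and that in circles seen in all 4 libraries to -1.03 weighted by counts. Small log2 fold changes also turned, none of them called with all 4 libraries; without control 1, where the knockdown pair alone sets the spread, DAB1 with OMA1 and HERC4 were called lower. When 1 library was left out they ranged from -0.77 to 0.29 for DAB1 with OMA1, -0.89 to 0.30 for HERC4, -1.31 to 0.20 for the BUB1B circle at 40199615, -1.61 to 0.054 for the POC1B-GALNT4 circle, -0.57 to 0.13 for the TULP4 circle at 158282263 and -0.085 to 0.13 for NFATC3. The values above 0 came without control 2, for BUB1B also without knockdown 1, for TULP4 without control 1, and NFATC3 was below 0 without control 2 or knockdown 1. NFATC3, 0.040 in edgeR, was -0.26 with library-size scaling, -0.031 in DESeq2, -0.14 with no filter, -0.0025 with 5 counts in 2 libraries and -0.037 with at least 40 counts.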
